A study of Mus musculus with 156 samples.

Results

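The change from 24 to 48 h after doxycycline was followed in 2 lines of mouse embryonic stem cells that carry no inducible Firre transgene. The 12 libraries, of 156 in the series, were chosen by their labels. They are those of the control lines of the long course at 1440 and 2880 min, with 3 replicates in each of 4 groups. The first line, mESC_Firre_OE_control, is labelled WT. The second, mESC_Firre_Rescue_control, is labelled Firre KO and lacks the long noncoding RNA Firre. Both lines had received doxycycline, the drug that switches on the transgene in the matched transgene lines of the study. The controls serve there to take out what the drug and time in culture do by themselves. Cells grew on gelatin with serum and LIF, together with PD0325901, which inhibits MEK, and CHIR99021, which inhibits GSK3. Each genotype was 1 line, so line and genotype cannot be told apart. All 12 libraries had doxycycline. Hours of drug, hours in culture and how old the medium was rise together and cannot be told apart. What a replicate is was not given. The p-values thus measure only the spread between libraries of the same group, estimated over the 60 long-course libraries. That spread may be technical.

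Mouse embryonic stem cells in LIF with MEK and GSK3 inhibitors are kept in naive pluripotency, a state that resembles the epiblast of the early blastocyst. These cells rely heavily on glycolysis, and they adjust amino acid synthesis and uptake through the integrated stress response. The inhibitors hold back FGF/ERK signalling, which would move them toward the primed epiblast. Keratins 8 and 18 pair to form the intermediate filaments of simple epithelia and of the early embryo. H19 and Igf2 are neighbouring imprinted genes, a noncoding RNA and a fetal growth factor.

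Total counts were 23639170 to 36492479 per library. Firre followed the labels. It stood at 70.1, 64.7 and 63.5 CPM (counts scaled to library size) at 24 h and at 64.0, 63.2 and 66.4 at 48 h in the WT control, and between 0.322 and 0.751 in the 6 KO control libraries. Neither line changed its Firre level over the step past the threshold (edgeR adjusted p = 0.685 and 0.53). The stem cell markers Pou5f1, Nanog, Sox2, Esrrb and Zfp42 summed to 2092 to 2437 TPM (transcript abundance corrected for length) per library. Primitive endoderm markers summed to at most 2.59 TPM and trophoblast markers to at most 6.63. Neuroectoderm markers, mostly Tubb3, summed to 37.3 to 49.3 TPM at 24 h and 29.5 to 34.1 at 48 h in the WT control, and to 48.1 to 53.2 and then 37.1 to 38.9 in the KO control. Mesendoderm markers went from 6.55 to 7.26 TPM to 4.25 to 5.75 in the WT and from 5.23 to 6.32 to 4.77 to 5.08 in the KO control. Of the 6 mesendoderm genes tested, 1 passed lower in the WT control and none in the KO control. Fibroblast markers summed to 4.35 to 8.71 TPM, 10 of the 12 had a mean under 1 TPM, and Lum was at 0 in all libraries. The share of counts from the mitochondrial genome was 4.28 to 4.54% at 24 h and 4.80 to 5.44% at 48 h. Replicate 3 of the WT control at 24 h stood apart, with Rn7s1, a structural RNA, at 1540.52 TPM where replicates 1 and 2 had 14.62 and 21.86, and results that rest on it are given with and without it. In bulk RNA, fewer cells of a type and less RNA per cell cannot be told apart.

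A gene counts as changed when its adjusted p in edgeR's quasi-likelihood test lay under 0.05 over the 17565 genes tested. Fold changes are log2 values at 48 h against 24 h with their standard error. In the WT control 2690 genes passed (15.3%), 1476 higher (8.4%) and 1214 lower (6.91%) at 48 h. In the KO control 408 genes passed (2.32%), 265 higher (1.51%) and 143 lower (0.814%). Counts of gene list members given below stand beside these shares, and no test was run over a list. Most changes were small. The median size among the genes that passed was 0.19 in the WT and 0.20 in the KO control, and only 155 and 29 genes changed by at least 0.58. The balance of directions depended on the scaling. Upper-quartile factors gave 1271 higher and 1528 lower in the WT and 196 higher and 202 lower in the KO control, and limma on log2(TPM + 1) gave 263 higher and 2478 lower, and 29 higher and 188 lower. The WT count was 1696 without replicate 1 at 24 h. The KO count fell to between 172 and 247 when any 1 KO library other than replicate 1 at 48 h was left out, and was lowest without replicate 3 at 48 h.

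The lines shared 242 of these genes (1.38% of the genes tested), 154 higher (0.877%) and 88 lower (0.501%) in both, and no gene passed in opposite directions. They are 9.0% of the WT and 59.3% of the KO list. Without replicate 3 of the KO control at 48 h 99 genes were shared, and without replicate 1 or 2 at 24 h, or replicate 2 at 48 h, of the same line 143, 151 and 145. A further 2448 genes passed only in the WT and 166 only in the KO control, which does not show that their changes differ. The test of the difference itself, KO change minus WT change, passed in 243 genes (1.38%), 129 with a higher value in the KO control (0.734%) and 114 with a lower one (0.649%), among them 202 of the 2448 and 18 of the 166. Of the genes that passed in the WT control 82.6% had the same sign in the KO control, and of those that passed in the KO control 91.7% had the same sign in the WT control. Over all genes tested that share was 61.6%. Across all genes the fold changes of the lines had a Pearson r of 0.12 and a Spearman rho of 0.22, as a description, since genes are not independent replicates.

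**Figure D1:**
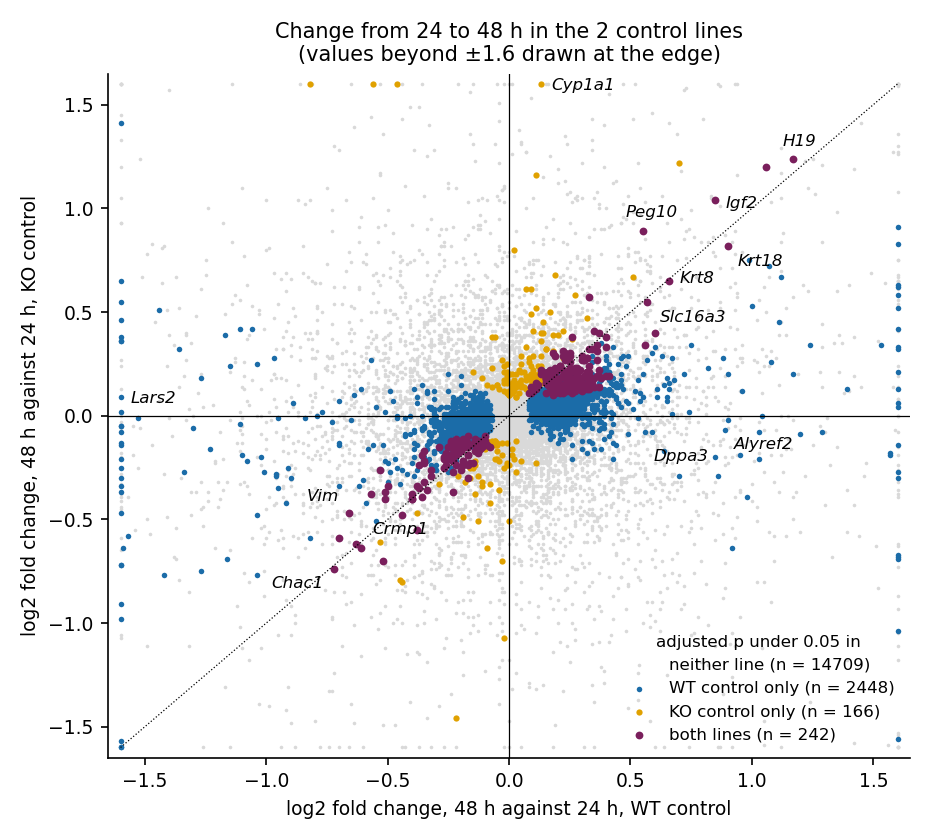
Each point is 1 of the 17565 genes tested, by its log2 fold change from 24 to 48 h in the WT control (horizontal) and in the KO control (vertical), with 3 libraries per group. The 242 genes that passed in both lines lie near the diagonal in the upper right and lower left, and the 2448 that passed in the WT control only spread along the horizontal axis.

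Among the genes that rose in both lines, imprinted genes and keratins led. Of the 26 imprinted genes tested, 4 rose and 6 fell in the WT control and 4 rose and 2 fell in the KO control, and the 6 of the KO control passed in the same direction in both. H19 (ENSMUSG00000000031.16, chromosome 7, 142575529 to 142578143, mm10), a noncoding RNA transcribed from the maternal allele, stood at 9.77, 11.7 and 11.0 CPM at 24 h and 24.4, 27.8 and 20.9 at 48 h in the WT control. The KO control had 14.9, 13.0 and 10.8 CPM and then 29.5, 33.0 and 30.5. Every 48 h library lay above every 24 h library of its line. Groups that do not overlap were a condition for naming the genes with the largest and the shared changes, so this is no added support. The log2 fold changes were 1.17 ± 0.17 and 1.24 ± 0.15 (edgeR adjusted p = 1.57e-06 and 3.01e-07), or 2.25-fold and 2.37-fold. Its neighbour Igf2 (chromosome 7, 142650766 to 142666816), the fetal growth factor, went from 6.91, 6.76 and 6.14 to 11.9, 12.5 and 11.4 CPM in the WT and from 7.21, 6.07 and 6.52 to 12.9, 15.4 and 12.5 in the KO control. Its groups did not overlap, and its fold changes were 0.85 ± 0.15 and 1.04 ± 0.14. Peg10 (chromosome 6, 4747306 to 4760517), a gene of retrotransposon origin expressed from the paternal allele, went from 33.1, 34.8 and 31.4 to 50.2, 51.2 and 43.6 CPM in the WT control. The KO control went from 45.2, 38.2 and 39.8 to 74.9, 75.3 and 78.9. Peg10 rose in both lines, by 0.55 ± 0.07 and 0.89 ± 0.06. The difference between those changes was 0.35 ± 0.09 (edgeR adjusted p = 0.0355) and missed the threshold without replicate 3 of the WT control at 48 h (0.28, edgeR adjusted p = 0.15), and also without replicate 1 or 2 of the WT control at 24 h, or replicate 2 or 3 at 24 h or 1 or 2 at 48 h of the KO control. Mest, a paternally expressed gene of the hydrolase family, went the other way. It stood at 45.4, 45.1 and 46.7 CPM at 24 h and at 33.8, 32.0 and 31.2 at 48 h in the WT control, and at 65.6, 62.4 and 61.3 and then 48.9, 49.6 and 51.0 in the KO control. It thus fell in both, by 0.50 ± 0.05 and by 0.34 ± 0.04 on the log2 scale.

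Krt18 (chromosome 15, 102028180 to 102032027) stood at 12.2, 11.4 and 11.3 CPM at 24 h and at 21.1, 23.6 and 20.6 at 48 h in the WT control. The values of the KO control were 15.1, 16.0 and 13.8 and then 26.4, 26.7 and 26.4. The fold changes were 0.90 ± 0.08 and 0.82 ± 0.07 (edgeR adjusted p = 4.64e-15 and 3.93e-15). Krt8, its partner gene (chromosome 15, 101996698 to 102004482), rose with it, by 0.66 ± 0.07 from 18.5, 20.1 and 18.6 CPM in the WT and by 0.65 ± 0.06 from 25.7, 25.2 and 24.7 in the KO control. At 48 h Krt8 lay between 29.2 and 31.1 CPM in the WT and between 39.0 and 40.2 in the KO control, above all 24 h libraries of the same line. Both keratins are also trophoblast genes. Of the 13 genes of the trophoblast list they were the only 2 that passed higher in either line, and Tfap2c passed lower in the WT control (-0.22). Vim, which encodes the intermediate filament protein vimentin (chromosome 2, 13573927 to 13582826), fell while the keratins rose. It stood at 104, 98.4 and 95.2 CPM and then at 63.1, 64.3 and 61.8 in the WT control, and at 74.4, 69.7 and 74.1 and then 56.2, 52.1 and 48.9 in the KO control. The fold changes were -0.66 ± 0.05 and -0.47 ± 0.05 (edgeR adjusted p = 9.21e-16 and 2.37e-10), with no overlap between the groups. Vim stood on the list of fibroblast genes, of which 2 of 8 passed lower in the WT and 1 in the KO control. Over all genes tested 6.91% and 0.814% passed lower. The fibroblast markers summed to 5.08 to 6.30 TPM and then 4.35 to 7.06 TPM in the WT control, and to 6.94 to 8.71 and then 6.25 to 7.03 in the KO control. Their part in the fall of Vim was not tested.

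**Figure D2:**
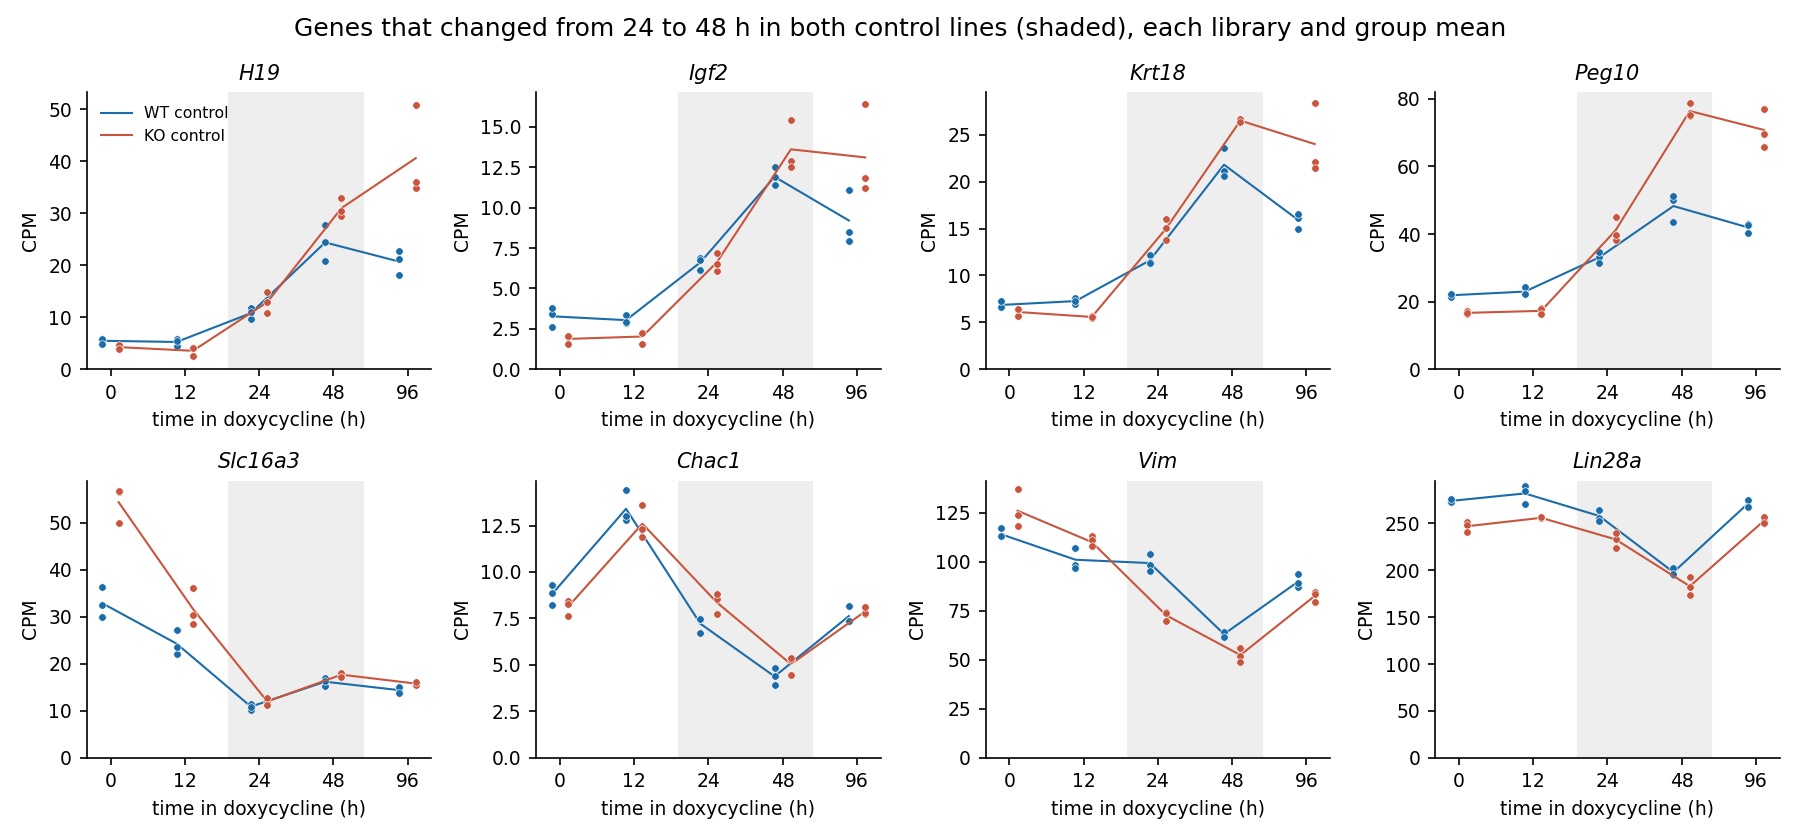
CPM of 8 genes that changed in both control lines, at 0, 12, 24, 48 and 96 h after doxycycline, with 1 point per library, 3 per line and time, and lines through the means. From 24 to 48 h H19, Igf2, Krt18, Peg10 and Slc16a3 rise and Chac1, Vim and Lin28a fall in both lines.

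Among genes of the integrated stress response more passed lower than higher. This pathway, which acts through the transcription factor ATF4, raises amino acid synthesis and uptake when amino acids run short or the endoplasmic reticulum is strained. Of its 24 genes tested, 8 fell and 1 rose in the WT control and 6 fell and 1 rose in the KO control, and those 7 passed in the same direction in both. The fold change was above 0 in 9 of the 24 in the WT and in 5 in the KO control. The list had a median of -0.08 in the WT and -0.12 in the KO control, beside 0.00 and 0.01 over all genes tested. Without replicate 1 of the KO control at 24 h only 3 fell in that line. Chac1, which encodes an enzyme that degrades glutathione (ENSMUSG00000027313.3, chromosome 2, 119351229 to 119354381), and Trib3, a pseudokinase gene of the same pathway chosen after its values were seen, carry a match to the element bound by ATF4 with its partners. The bases before the RefSeq start of Chac1 (GRCm38.p6, chr2:119350992-119351241, plus strand) and 30 bases after that of Trib3 (chr2:152344028-152344057, minus strand) are shown, with the match in capitals.
Chac1: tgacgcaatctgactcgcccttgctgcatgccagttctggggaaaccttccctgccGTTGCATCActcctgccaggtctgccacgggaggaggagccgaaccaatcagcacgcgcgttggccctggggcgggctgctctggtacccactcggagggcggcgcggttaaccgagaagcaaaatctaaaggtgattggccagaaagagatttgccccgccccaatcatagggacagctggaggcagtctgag
Trib3: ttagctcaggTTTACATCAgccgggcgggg
The letters searched were TGATGNAAN on both strands, in windows of 250 bases before to 50 after each start. They were found in 7 of the 23 genes of the list that had a window (30.4%), namely Trib3, Chac1, Asns, Pycr1, Slc7a11, Vldlr and Nupr1, and in 1215 of 27025 genes in all (4.5%). A match is a description of the letters and not a site in use.

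Chac1 stood at 7.49, 7.45 and 6.72 CPM at 24 h and at 4.38, 4.82 and 3.94 at 48 h in the WT control. The KO control had 8.56, 8.80 and 7.75 and then 5.29, 4.47 and 5.36. All 48 h libraries lay below all 24 h libraries. The fold changes were -0.72 ± 0.11 and -0.74 ± 0.10 (edgeR adjusted p = 7.76e-07 and 2.44e-07). Trib3 went from 28.7, 26.0 and 27.6 to 20.8, 21.6 and 21.9 CPM in the WT and from 28.9, 30.8 and 29.3 to 23.6, 23.2 and 21.1 in the KO control, changes of -0.36 ± 0.06 and -0.39 ± 0.06. Mthfd2, a mitochondrial enzyme of one-carbon metabolism, fell by 0.22 ± 0.03 and by 0.19 ± 0.03 on the log2 scale. Its levels went from 93.9, 93.2 and 89.6 to 81.0, 78.4 and 78.8 CPM in the WT and from 98.8, 96.4 and 97.6 to 85.6, 84.9 and 86.7 in the KO control. The proline synthesis gene Aldh18a1 fell by 0.24 in the WT and 0.15 in the KO control, where it missed the threshold without replicate 1 at 24 h (edgeR adjusted p = 0.0786). Asns, asparagine synthetase, was the gene of the list that rose, by 0.09 and 0.14. In the WT control that rise was lost without replicate 3 at 24 h or replicate 2 or 3 at 48 h (edgeR adjusted p up to 0.136), and was -0.07 with limma on log2(TPM + 1). Of 20 aminoacyl-tRNA synthetases, which this pathway also raises, 6 fell in the WT and 2 in the KO control, with a median of -0.05 and -0.02, and 13 fell in the WT control with limma on log2(TPM + 1). Aars, which charges the alanine tRNA, was at -0.14 and -0.11, and its KO call was lost without replicate 1 at 24 h or replicate 2 or 3 at 48 h (edgeR adjusted p up to 0.084).

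Glycolysis genes passed mainly upward. Of 18 gene models tested, 7 rose and 1 fell in the WT control and 7 rose and none fell in the KO control, with 4 higher in both. The medians were 0.07 and 0.09. The KO count was 3 without replicate 2 at 24 h or replicate 2 at 48 h and 4 without replicate 3 of either time or with upper-quartile factors, and the WT count was 4 without replicate 3 at 24 h. Of 16 genes induced by low oxygen, 5 rose in the WT control and 1 in the KO control, with medians of 0.13 and 0.06. The WT count was 2 without replicate 1 at 24 h or replicate 3 at 48 h, 3 without replicate 2 of either time and 0 with limma on log2(TPM + 1). Slc16a3, which encodes a lactate exporter (chromosome 11, 120948480 to 120960868), and P4ha1, a collagen prolyl hydroxylase that hypoxia-inducible factor raises, passed in both lines and hold the core letters of that factor's known element. The 250 bases before their RefSeq starts (GRCm38.p6) are chr11:120948817-120949066 and chr10:59323046-59323295, both on the plus strand, with the matches in capitals.
Slc16a3: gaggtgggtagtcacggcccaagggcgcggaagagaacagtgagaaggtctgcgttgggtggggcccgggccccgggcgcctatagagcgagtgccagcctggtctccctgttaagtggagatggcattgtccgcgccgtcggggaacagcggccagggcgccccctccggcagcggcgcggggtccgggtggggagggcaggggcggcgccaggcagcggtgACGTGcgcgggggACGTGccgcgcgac
P4ha1: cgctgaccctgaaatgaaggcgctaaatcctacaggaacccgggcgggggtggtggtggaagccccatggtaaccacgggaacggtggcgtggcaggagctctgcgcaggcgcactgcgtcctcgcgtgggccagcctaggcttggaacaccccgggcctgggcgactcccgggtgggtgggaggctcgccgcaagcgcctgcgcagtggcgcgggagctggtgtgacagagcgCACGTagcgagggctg
The letters searched were ACGTG on both strands. They were found in 10 of 13 genes of the low-oxygen list (76.9%) and 11 of 16 of the glycolysis list (68.8%), the latter searched after the values were seen, and in 5886 of 27025 genes in all (21.8%). Slc16a3 holds 2 matches and P4ha1 holds 1, and the window of Tpi1, a glycolysis gene that also passed in both lines, holds none. Here too a match describes the letters and is not a site in use. Whether genes with a match changed more from 24 to 48 h was not tested.

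Slc16a3 stood at 10.2, 11.5 and 10.8 CPM at 24 h and at 15.3, 16.9 and 16.3 at 48 h in the WT control. The KO control had 11.9, 12.7 and 11.3 and then 17.8, 18.0 and 17.1. The groups did not overlap, and the changes were 0.57 ± 0.09 and 0.55 ± 0.08 (edgeR adjusted p = 7.45e-06 and 1.39e-05). Tpi1, the triose phosphate isomerase of glycolysis, went from 264, 277 and 277 to 334, 366 and 357 CPM in the WT and from 270, 285 and 276 to 317, 321 and 327 in the KO control, rises of 0.37 ± 0.04 and 0.22 ± 0.04. P4ha1 rose by 0.25 ± 0.06 in the WT and 0.30 ± 0.06 in the KO control. Its WT call was lost without replicate 2 at 48 h (edgeR adjusted p = 0.0528). It stood at 17.3, 17.5 and 17.1 CPM in the WT control at 24 h and at 19.7, 21.8 and 20.3 at 48 h, and in the KO control at 16.1, 16.3 and 15.9 and then at 17.9, 21.2 and 20.8. Ldha, the lactate dehydrogenase subunit, rose by 0.27 in the WT control and by 0.14 in the KO control, where the call was lost without replicate 1 or 2 at 24 h or 2 or 3 at 48 h (edgeR adjusted p up to 0.121). Slc16a3 and P4ha1 had gone the other way in the step before, with -1.15 and -0.24 from 12 to 24 h in the WT and -1.38 and -0.45 in the KO control. Neighbouring steps share the libraries of the time between them, so these values stand side by side and are no independent evidence.

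Pluripotency genes passed in both directions. Of 12 core genes, 4 rose and 3 fell in the WT control and 3 rose and 1 fell in the KO control, and of 16 naive genes the counts were 4 and 3, and 3 and 0. The 3 that rose in the KO control were 1 for the core genes without replicate 3 at 24 h and 1 for the naive genes without replicate 2 at 48 h. The 3 naive genes that fell in the WT control were 0 or 1 without replicate 1 at 24 h or replicate 2 or 3 at 48 h. With limma on log2(TPM + 1) the balance of the core genes turned, to 2 higher and 7 lower in the WT control, with 1 higher in the KO control, and 1 naive gene rose in the WT and none in the KO control. Nanog and Pou5f1 rose in the WT control, by 0.15 ± 0.03 and 0.18 ± 0.04, and stood at 0.01 and 0.02 in the KO control (edgeR adjusted p = 0.897 and 0.874). The difference between lines did not pass for either (edgeR adjusted p = 0.0627 and 0.0918). Lin28a, an RNA-binding protein that blocks the maturation of let-7 microRNAs (chromosome 4, 134003330 to 134018841), stood at 256, 253 and 264 CPM at 24 h and at 202, 195 and 196 at 48 h in the WT control. Values in the KO control were 233, 224 and 240 and then 193, 174 and 182. It fell in both lines with no overlap, by 0.38 ± 0.03 and by 0.34 ± 0.03 on the log2 scale (edgeR adjusted p = 2.76e-15 and 1.53e-13). Tdgf1, the Nodal co-receptor Cripto, rose by 0.33 ± 0.03 and 0.19 ± 0.03. It went from 874, 903 and 893 to 1088, 1128 and 1141 CPM in the WT and from 919, 941 and 929 to 1010, 1068 and 1108 in the KO control. Zfp296, a zinc finger gene of pluripotent cells, rose by 0.37 ± 0.06 and 0.40 ± 0.06, from 42.8 to 45.7 CPM at 24 h to 55.5 to 57.9 at 48 h in the WT and from 39.3 to 40.1 to 48.6 to 58.5 in the KO control. The orphan nuclear receptor gene Nr0b1 rose by 0.24 and 0.21.

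Of 12 formative and primed epiblast genes, which rise when naive cells move toward the postimplantation state, none rose, 4 fell in the WT control and 3 in the KO control. The WT count was 2 without replicate 1 at 24 h, and the KO count was 0 with limma on log2(TPM + 1). Dnmt3b, a de novo DNA methyltransferase, went from 147, 136 and 143 to 122, 119 and 115 CPM in the WT and from 126, 118 and 122 to 112, 107 and 105 in the KO control. Its groups did not overlap and it fell by 0.26 ± 0.04 and by 0.18 ± 0.04 on the log2 scale. Etv4, an ETS factor gene induced by FGF/ERK signalling, stood at 13.9, 13.5 and 12.3 CPM and then at 9.52, 9.63 and 8.74 in the WT control, a change of -0.51 ± 0.08. In the KO control it stood at 10.2, 9.59 and 11.1 and then at 9.35, 7.09 and 7.32, a change of -0.37 ± 0.09 that lost its call without replicate 3 at 24 h or without replicate 2 or 3 at 48 h (edgeR adjusted p up to 0.102). The 15 FGF/ERK targets held 4 that fell in the WT and 2 in the KO control and none that passed higher. Their medians were -0.09 and 0.02, with 3 of the 15 above 0 in the WT and 10 in the KO control. The difference between lines passed for 2, both with a higher value in the KO control. Of 13 genes of DNA methylation and demethylation 6 fell in the WT control, and in the KO control 2 fell and 1 rose. The WT count was 3 without replicate 1 at 24 h. Of 7 neuroectoderm genes tested 2 fell in the WT and 1 in the KO control and none rose, while the medians were 0.04 and 0.13, with 5 and 4 members above 0. The neuronal tubulin gene Tubb3 was the one that fell in both, by 0.34 ± 0.06 and by 0.36 ± 0.06 on the log2 scale. Crmp1, a cytosolic phosphoprotein gene of growing axons, fell from 9.0, 8.86 and 8.28 to 5.79, 5.65 and 5.44 CPM in the WT and from 10.9, 10.9 and 11.8 to 7.19, 7.20 and 7.39 in the KO control. Its changes were -0.63 ± 0.10 and -0.62 ± 0.08, and the groups did not overlap.

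Genes of the mitochondrial genome passed upward in both lines. Of 13 tested, 9 rose in the WT and 5 in the KO control, with a median of 0.22 in each line and all 13 fold changes above 0 in both. The KO count was 1 without any 1 of the 5 KO libraries other than replicate 1 at 48 h, and the WT count was 5 without replicate 3 at 48 h. With no filter on low counts the KO count was 11, and in a fit on the 12 libraries or with upper-quartile factors it was 3. mt-Co1, a subunit of cytochrome c oxidase, stood at 14115, 13953 and 15152 CPM at 24 h and at 17293, 18018 and 18624 at 48 h in the WT control. The KO control had 15105, 14695 and 14927 and then 16690, 18161 and 19311. It rose by 0.32 ± 0.05 and 0.28 ± 0.05, with no overlap.

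More genes of ribosomes, the respiratory chain and the proteasome passed upward in the WT than in the KO control. Of 51 cytosolic ribosomal protein genes, 44 rose in the WT control and 12 in the KO control and none fell, with medians of 0.28 and 0.11. The fold change was above 0 in 50 of the 51 in the WT and in 47 in the KO control. The difference between lines passed for 7 of the 51, each with a smaller rise in the KO control. The KO count was 3 without replicate 3 at 48 h, 4 to 5 without replicate 1 or 2 at 24 h or replicate 2 at 48 h, and 6 with upper-quartile factors. It was 20 in a fit on the 6 KO libraries and 21 with no filter on low counts. In the step before, from 12 to 24 h, 5 of the 51 rose and 3 fell in the WT control. In the KO control 35 rose and 1 fell over that step, which shares the 24 h libraries. Rps3, a protein of the small ribosomal subunit (chromosome 7, 99477896 to 99483738), went from 1609, 1721 and 1655 to 2012, 2098 and 2156 CPM in the WT control. The KO control went from 1623, 1662 and 1700 to 1740, 1786 and 1815. The changes were 0.33 ± 0.03 (edgeR adjusted p = 3.33e-12) and 0.10 ± 0.03 (0.0955), and they differed by -0.23 ± 0.05 (0.00366). Rps7 and Rpl32 rose in both lines, by 0.34 each in the WT and by 0.17 and 0.15 in the KO control, where the call for Rpl32 was lost without replicate 3 at 48 h (edgeR adjusted p = 0.0627).

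Of 29 nuclear genes of the respiratory chain 18 rose in the WT and 2 in the KO control, with medians of 0.18 and 0.06, and the difference passed for 3. The fold change was above 0 in 26 of the 29 in each line. From 12 to 24 h 8 had risen in the WT and 19 in the KO control, and none had fallen. Uqcrb, a subunit of complex III, went from 132, 145 and 142 to 170, 171 and 178 CPM in the WT control, a rise of 0.31 ± 0.04. In the KO control it stood at 156, 151 and 151 and then at 156, 163 and 162 (0.07, edgeR adjusted p = 0.392). The lines differed by -0.24 ± 0.05 (edgeR adjusted p = 0.0103), a call that was lost without replicate 1 at 24 h or replicate 3 at 48 h of the WT control (edgeR adjusted p = 0.0849 and 0.0536). Of 27 proteasome genes 15 rose and 1 fell in the WT control and none passed in the KO control, while the difference passed for none. Psmb1, a core subunit, was at 0.22 and 0.05. Of 14 genes of the 2-cell-like state, a rare state that resembles the 2-cell embryo, 6 rose in the WT control and none passed in the KO control. That WT count was 1 without replicate 1 at 24 h and without replicate 2 or 3 at 48 h. The difference between the control lines passed for 1 of the 14. Over the same step 11 rose in the WT transgene line and 6 in the KO transgene line. In the step before, from 12 to 24 h, 12 of the 14 rose in the KO control and none fell, while 1 rose and 1 fell in the WT control. From 48 to 96 h 7 rose in the KO control and none passed in the WT control. Both steps share libraries with the step described here. Zscan4d, a marker of that state with near-identical copies, was at 0.21 and -0.11, and its WT call was lost without replicate 1 at 24 h or replicate 3 at 48 h (edgeR adjusted p = 0.175 and 0.0641). Primitive endoderm genes went the other way, with 5 of 12 lower in the WT control and none in the KO control. The WT count was 2 without replicate 1 at 24 h or replicate 3 at 48 h. The difference between the control lines passed for 1 of the 12. In the WT transgene line 5 fell over the same step, and in the KO transgene line 6 fell. None of the 6 primitive endoderm markers summed above passed in either control line. Their sum was 1.81 to 2.41 TPM at 24 h and 1.72 to 2.26 at 48 h in the WT control. In the KO control it was 2.14 to 2.56 and then 2.05 to 2.59. With limma on log2(TPM + 1) the ribosomal counts were 23 and 0, the respiratory chain count in the WT control 4, the proteasome count 1, the 2-cell count 0 and the mitochondrial count 1 in each line, and glycolysis had 4 and 1.

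**Figure D3:**
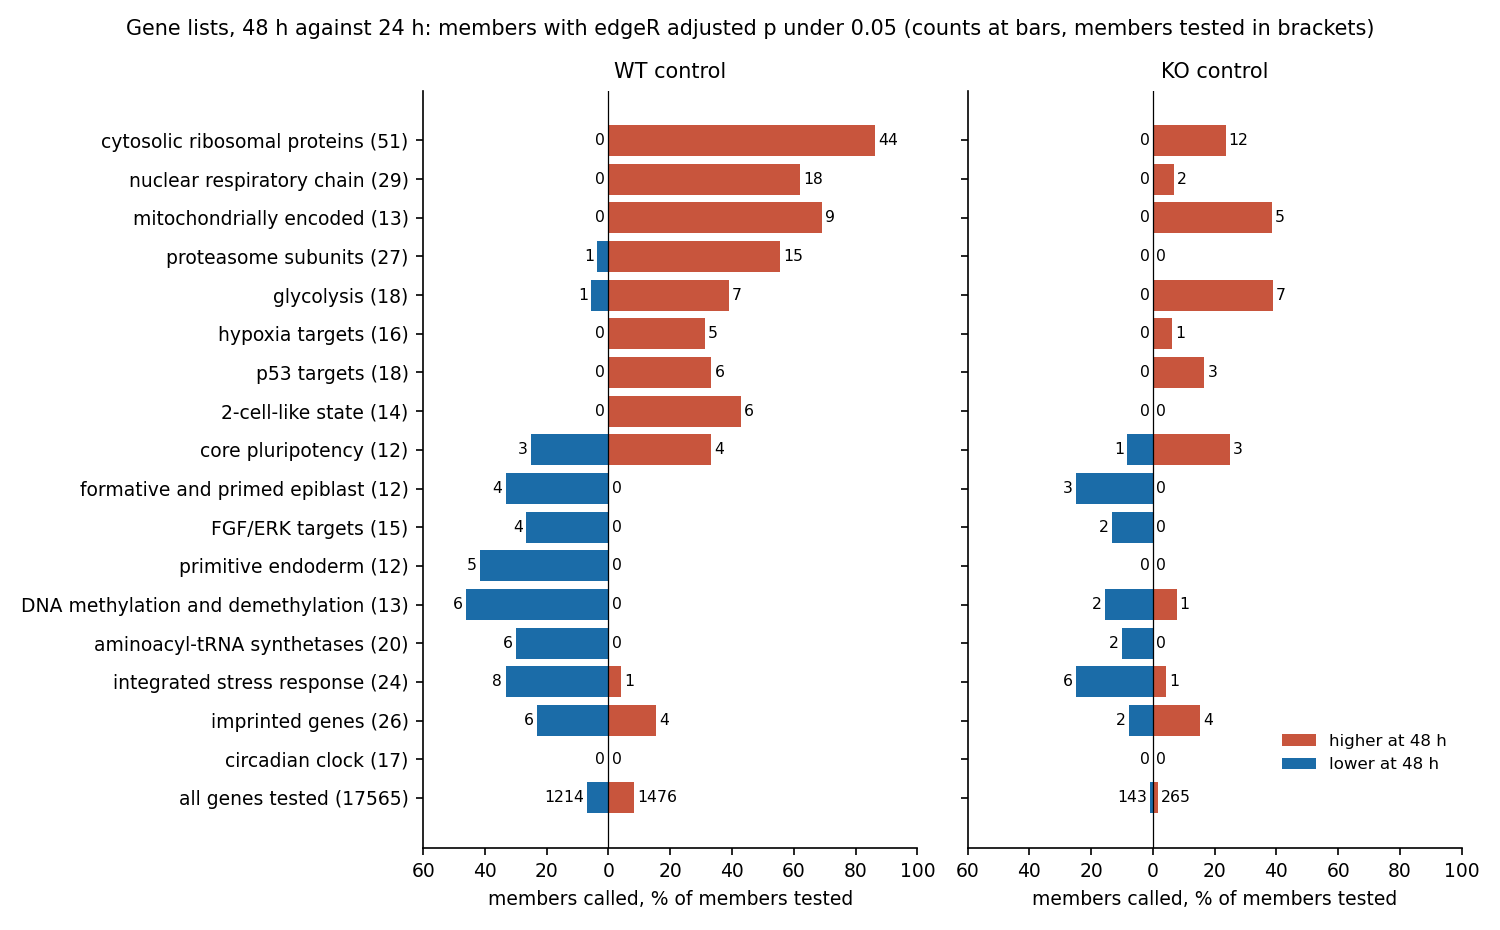
Bars give the percentage of tested members of each gene list that passed higher (to the right) or lower (to the left) at 48 h in the WT and KO control, with the counts at the bars and all genes tested in the lowest row. Of the 51 ribosomal protein genes 44 passed higher in the WT and 12 in the KO control, and of the 13 mitochondrial genes 9 and 5.

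The difference between the lines passed for 243 genes, and 139 of them had opposite signs in the lines. Only 14 differed by at least 0.58. The number was 44 without replicate 1 of the WT control at 24 h and 45 without its replicate 3 at 48 h, and between 82 and 129 without replicate 2 of the WT control at 48 h or any of replicates 2 and 3 at 24 h and 1 and 2 at 48 h of the KO control. It was 420 without replicate 3 of the KO control at 48 h. Of the 28 genes given in the text that passed this test, which are part of the 243, 5 passed it whichever of the 12 libraries was left out. They are Dppa3, Rpa3, Mrps33, Rps3 and Vcan. With limma on log2(TPM + 1) all 28, these 5 included, lost their call.

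Dppa3 (ENSMUSG00000046323.8, chromosome 6, 122626410 to 122630272), a maternal factor that protects methylation in the early embryo and a naive marker, stood at 8.31, 8.41 and 10.2 CPM at 24 h and 13.2, 12.6 and 13.7 at 48 h in the WT control. The KO control had 19.4, 17.6 and 17.4 and then 16.0, 16.9 and 18.9. The WT groups did not overlap and the KO groups did, the KO libraries lying above all WT libraries at both times. The changes were 0.56 ± 0.09 and -0.08 ± 0.08 (edgeR adjusted p = 3.31e-06 and 0.741), and they differed by -0.64 ± 0.12 (edgeR adjusted p = 0.00253). From 48 to 96 h Dppa3 fell in both, by 1.71 and by 1.79 on the log2 scale. Rpa3 (chromosome 6, 8255936 to 8259173), the small subunit of the single-strand binding protein of replication, went from 39.9, 46.4 and 43.6 to 53.8, 56.2 and 59.5 CPM in the WT control. The KO control had 52.3, 52.4 and 50.8 and then 48.4, 50.5 and 53.7, with overlapping groups. The changes differed by -0.41 ± 0.07 (edgeR adjusted p = 0.00186). Mrps33, a protein of the mitochondrial ribosome, went from 36.1, 40.0 and 33.4 to 44.6, 47.3 and 48.2 CPM in the WT control and from 41.2, 41.7 and 44.1 to 42.7, 41.2 and 41.7 in the KO control. It rose in the WT control by 0.35 ± 0.05 and was at -0.01 in the KO control (edgeR adjusted p = 0.947), and the difference was -0.36 ± 0.08 (edgeR adjusted p = 0.0053).

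Vcan (chromosome 13, 89655312 to 89742509), the matrix proteoglycan versican, went the other way. It stood at 49.5, 49.3 and 51.3 CPM and then at 44.1, 39.8 and 42.1 in the WT control, and at 39.7, 37.7 and 36.3 and then 39.5, 42.2 and 41.9 in the KO control. It fell by 0.25 ± 0.05 in the WT control, was at 0.12 ± 0.05 in the KO control (edgeR adjusted p = 0.24), and the difference was 0.37 ± 0.07 (edgeR adjusted p = 0.00253). Lrp2, the endocytic receptor megalin, went from 40.1, 37.1 and 40.5 to 31.5, 30.7 and 29.7 CPM in the WT control, and stood at 43.9, 44.0 and 42.6 and then at 45.1, 42.4 and 38.4 in the KO control. Its difference of 0.30 ± 0.07 (edgeR adjusted p = 0.014) was lost without replicate 1 of the WT control at 24 h, replicate 3 of the WT control at 48 h or replicate 1 of the KO control at 48 h (edgeR adjusted p up to 0.0852). Nid1, the basement membrane linker nidogen, rose in the KO control, from 287, 279 and 275 to 328, 321 and 316 CPM, by 0.20 ± 0.03. In the WT control it stood at 329, 305 and 300 and then at 318, 312 and 303. The difference was 0.20 ± 0.04 (edgeR adjusted p = 0.00918), or 0.16 without replicate 1 of the WT control at 24 h, and was lost there and without its replicate 3 at 48 h (edgeR adjusted p = 0.0849 and 0.0509). Of 18 adhesion and basement membrane genes, 3 fell in the WT control, and 3 rose and 1 fell in the KO control. Over all genes tested 6.91% fell in the WT control, and 1.51% rose and 0.814% fell in the KO control. Without replicate 2 at 24 h or replicate 1 at 48 h only 1 rose in the KO control, and without replicate 1 at 24 h or replicate 3 at 48 h only 1 fell in the WT control. The WT count was 5 with DESeq2, with upper-quartile factors or with genes under a mean of 1 CPM left out, and limma on log2(TPM + 1) gave 6 lower in the WT and none higher in the KO control.

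**Figure D4:**
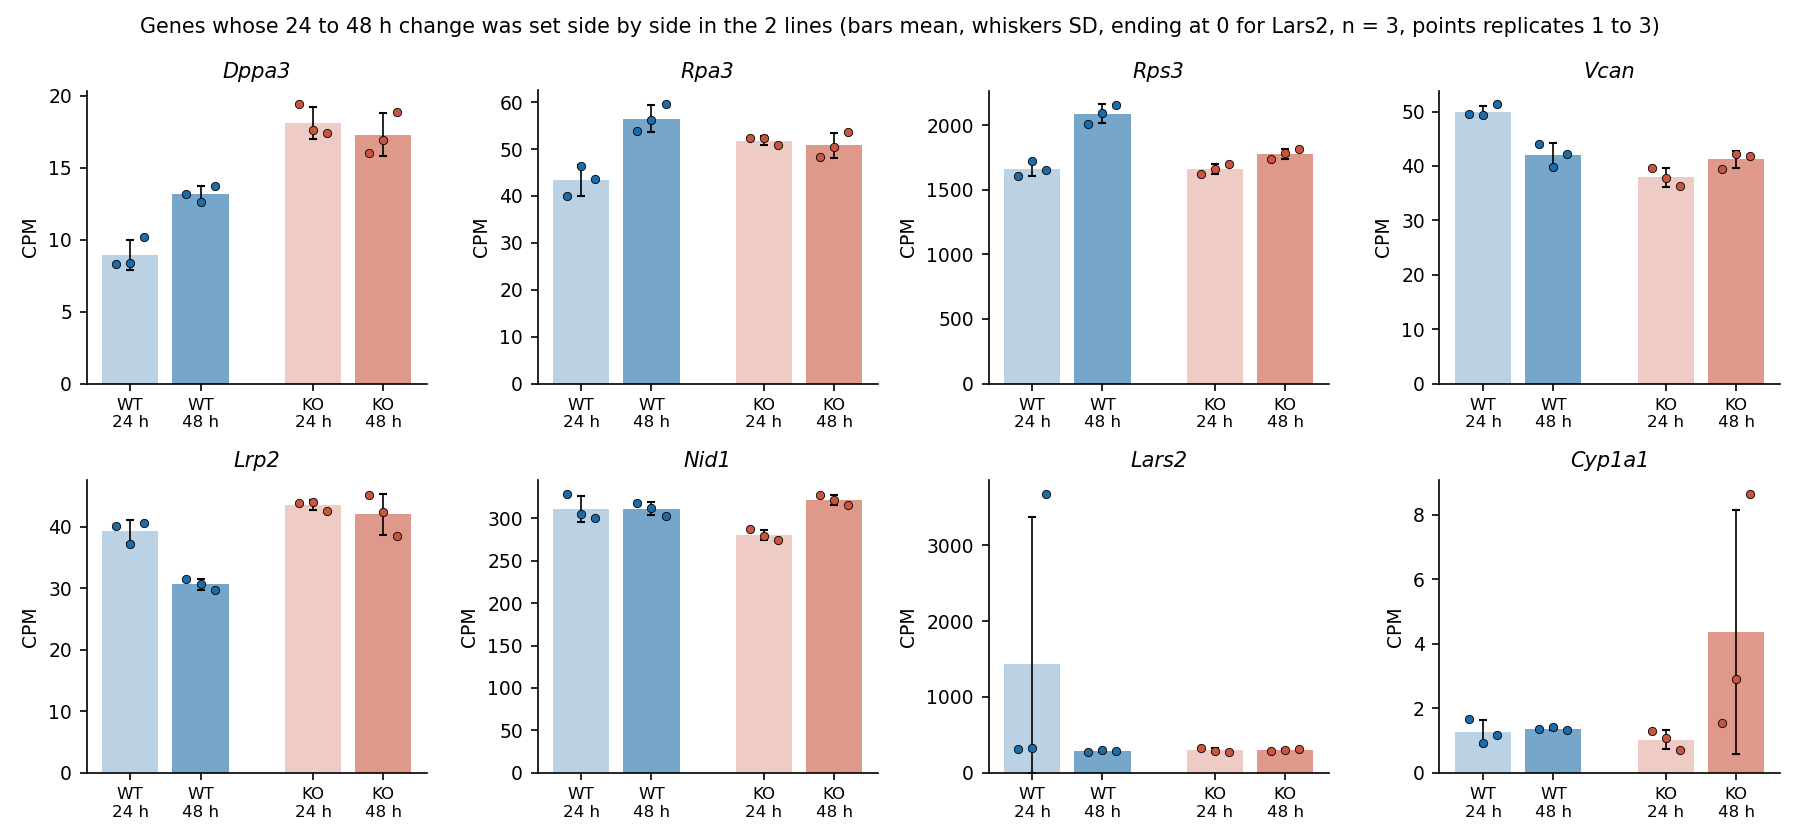
CPM of 8 genes at 24 and 48 h in the WT and KO control, with bars for the mean, whiskers for the SD of 3 libraries (drawn to 0 for Lars2) and 1 point per library. Dppa3, Rpa3 and Rps3 are higher at 48 h in the WT control, Vcan and Lrp2 are lower there, Nid1 is higher at 48 h in the KO control, and 1 library each stands far above the rest for Lars2 and Cyp1a1.

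Changes in the WT control also followed the length of the gene's exons. Over 17051 genes with a length, the Spearman rho of fold change with length was -0.20 in the WT control, -0.05 in the KO control and 0.17 for the difference, as a description across genes. In 5 classes of equal size by length, the shortest genes, of 67 to 1975 bases, had a median change of 0.084 in the WT and 0.029 in the KO control. The longest, from 6853 bases, had -0.05 and -0.002. In the WT control 438 genes of the shortest class passed higher and 54 lower, and in the longest class 136 higher and 569 lower. Among the genes whose change differed between lines, 2 were higher and 44 lower in the KO control in the shortest class, and 78 higher and 4 lower in the longest. The gap between the shortest and longest class in a library, in median log2 deviation from the mean of the 12 libraries, was -0.138, -0.051 and -0.032 at 24 h and 0.054, 0.109 and 0.094 at 48 h in the WT control. In the KO control it was -0.028, -0.008 and -0.027 and then 0.018, -0.001 and 0.022. With an offset that takes out the trend with length in each library, an alternative chosen after seeing the data, 35 ribosomal genes rose in the WT and 11 in the KO control, 13 of the respiratory chain, 8 of the proteasome and none of the 2-cell list rose in the WT control, and 2 mitochondrial genes rose in each line. The difference between lines then passed for 111 genes, with Dppa3, Rpa3, Mrps33, Rps3 and Vcan among them. With that offset 2227 genes passed in the WT control, 407 in the KO control and 231 in both. Of the calls of genes given in the text it lost 3 of 56 in the WT control, none of 37 in the KO control and 16 of 28 for the difference. In the WT control 3 primitive endoderm genes and 1 naive gene then passed lower.

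**Figure D5:**
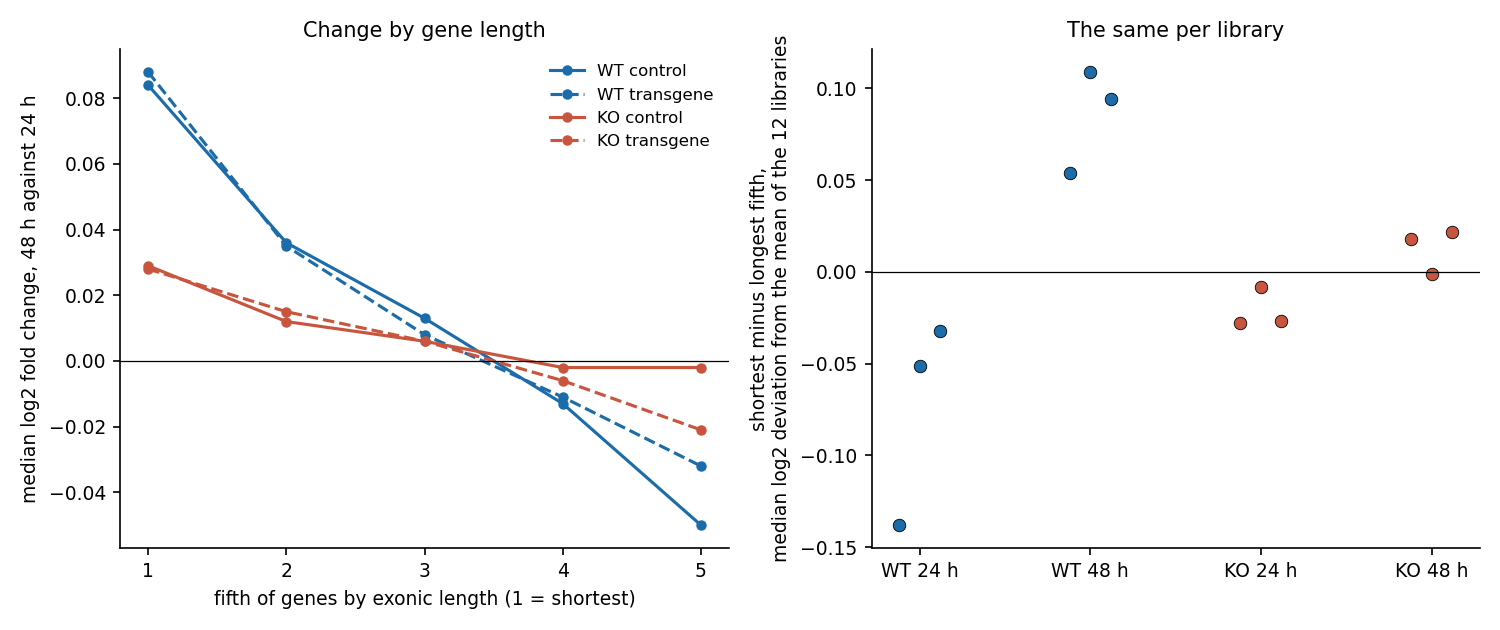
Left, median log2 fold change from 24 to 48 h by length class of the exons, in 5 classes of equal size, for the control lines and, for comparison, the transgene lines. Right, for each of the 12 control libraries, the shortest minus the longest class in median log2 deviation from the mean of the 12 libraries, which runs from -0.138 in replicate 1 of the WT control at 24 h to 0.109 in replicate 2 at 48 h.

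The same step in the matched transgene lines, whose libraries are separate, gave 3574 genes in the WT background (20.3%) and 1198 in the KO background (6.82%). The induced transgene is part of those lines, so these values are a description. Of the 2690 genes of the WT control, 1768 (65.7%) passed in the same direction in the WT transgene line, which is 49.5% of that line's list, and 1 in the opposite direction. Of the 408 genes of the KO control, 187 (45.8%) passed in the KO transgene line, 15.6% of its list, with none opposite. Of the 242 shared genes, 134 (55.4%), 82 higher and 52 lower, passed in all 4 lines. H19 rose there by 1.77 and 1.94 in the WT and KO transgene line, Krt18 by 1.08 and 0.86 and Peg10 by 1.04 and 0.95. Chac1 fell by 0.58 and by 0.64 on the log2 scale, Vim by 0.73 and by 0.36 and Lin28a by 0.63 and by 0.36. Slc16a3 rose in the WT transgene line (0.57) and was at 0.15 in the KO transgene line (edgeR adjusted p = 0.461). The differences between the lines were found less widely. Between the transgene lines 1.14% of the genes differed. Of the 243 genes, 13 passed there in the same direction and 1 in the opposite direction, while 200 (82.3%) had the same sign, beside 57.8% of all genes. Dppa3 was at 0.56 and 0.24 there, a difference of -0.32 that did not pass (edgeR adjusted p = 0.189). Vcan differed by 0.11 and Rpa3 by -0.10 (edgeR adjusted p = 0.449 and 0.552).

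Several named genes that fell from 24 to 48 h were higher again at 96 h. From 48 to 96 h Chac1 rose by 0.80 and 0.64, Crmp1 by 0.64 and 0.85, Vim by 0.51 and 0.65, Mest by 0.52 and 0.52, Lin28a by 0.45 and 0.47 and Etv4 by 1.05 and 1.17 in the WT and KO control. Among the genes that had risen, Krt18 and Krt8 fell from 48 to 96 h in the WT control, by 0.46 and by 0.38 on the log2 scale, and were at -0.14 and -0.12 in the KO control (edgeR adjusted p = 0.106 and 0.167). Before the step, from 12 to 24 h, H19 was at 1.02 and 1.81, Igf2 at 1.11 and 1.78 and Krt8 at 0.74 and 1.77. These steps share the 24 h or the 48 h libraries with the step described here.

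Several large changes rested on 1 library. Lars2 (chromosome 9, 123366927 to 123462666), the mitochondrial leucyl-tRNA synthetase, stood at 316, 322 and 3683 CPM at 24 h and at 271, 302 and 290 at 48 h in the WT control. Replicate 3 at 24 h alone was high, and it is the library that also stood apart in Rn7s1. The fold change of -2.32 ± 0.43 (edgeR adjusted p = 0.000117) was -0.15 without it (edgeR adjusted p = 0.636). The structural RNA genes Rmrp and Rn7s1 stood at -7.74 and -5.33 with that library and at -2.39 and -0.20 without it (edgeR adjusted p = 0.256 and 0.831). All 4 structural RNA genes that passed lower in the WT control, of 5 tested, lost their call without it, and with DESeq2. In the KO control Cyp1a1, a detoxifying enzyme that the aryl hydrocarbon receptor induces, stood at 1.30, 1.07 and 0.712 CPM at 24 h and at 1.53, 2.90 and 8.65 at 48 h. The fold change of 2.04 ± 0.46 (edgeR adjusted p = 0.0084) was 1.06 without replicate 3 at 48 h (edgeR adjusted p = 0.365), and the call was also lost without replicate 3 at 24 h (edgeR adjusted p = 0.0589). Cyp1a1 of the WT control lay between 0.917 and 1.66 CPM at both times. The WT calls of Lars2, Rmrp and Rn7s1 and the KO call of Cyp1a1 were also lost in fits on the 12 libraries or on the 6 of the line.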

How the data were processed

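RNA-seq of poly(A) RNA was analysed, with libraries from a kit that does not mark strand. The deposited files hold counts and TPM per gene for 156 libraries, in columns headed count and TPM. They were made with Salmon 1.5.2 on mm10 per the submitters' processing notes. The step from transcripts to genes is not given in the sources used here. Of the deposited expected counts 76.0% were exactly whole. The tests used edgeR 4.0.16 (R 4.3.3) on the rounded values, over the 60 long-course libraries in 20 groups, with filterByExpr defaults (minimum count 10, minimum total 15), TMM scaling and robust quasi-likelihood tests, adjusted by Benjamini-Hochberg over all 17565 genes. CPM was computed with edgeR from counts scaled by TMM. The deposited TPM served for marker levels and in an alternative with limma 3.58.1 on log2(TPM + 1). DESeq2 1.42.0 was another alternative. Gene positions and exonic lengths came from GENCODE M21, and promoter sequences from RefSeq on GRCm38.p6.

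Named genes had an adjusted p under 0.05. They were the 10 largest each way in each line and the 10 each way shared by the lines. To these came the 8 each way that differ between the lines and at most 4 members per gene list, given in part. The largest and the shared genes had to have groups that do not overlap and a mean CPM of at least 1. Their lack of overlap is thus no added support. Genes that differ between the lines had the CPM condition only, and list members had neither condition. Provisional symbols were left out. The members and lists were chosen with earlier results of these data known. Tested on simulated counts of the WT comparison with 17231 genes, the test recovered 34 of 50 genes changed by 0.3, 39 of 50 by 0.58, 46 of 50 by 1 and 50 of 50 by 1.5 on the log2 scale. The simulation changed 50 genes at each of these sizes, while 2690 genes passed in the WT control. The adjustment over all genes depends on how many change, so these shares may not hold for the real comparison. Recovery was not tested by expression level. There were 3 libraries per group, with 23639170 to 36492479 counts per library.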

Additional observations from a re-analysis of the deposited data

Results flagged for a closer look

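The change from 24 to 48 h differed between the control lines by a test of the difference itself, KO change minus WT change, in 243 genes (edgeR adjusted p under 0.05). Leaving out genes under a mean of 1 CPM and provisional symbols, the values of the 8 genes each way with the largest differences, on the log2 scale, were -1.06 for Dcc, -0.76 for Crxos, -0.64 for Dppa3, -0.56 for Gsdmd, -0.41 for Rpa3, -0.40 for Aard, -0.38 for Smim8 and -0.36 for Mrps33 on the side of a smaller rise or a fall in the KO control. On the other side stood Vcan at 0.37, Tnfrsf8 at 0.38, Lpp at 0.38, Cercam at 0.42, Srgap1 at 0.44, Elk4 at 0.45, Ppfibp2 at 0.51 and Lars2 at 2.34. Examples among the list members and named genes that also differed, which are not all of those that passed, were Zscan4d at -0.32, Uqcrb at -0.24, Rps3 at -0.23, Pcna at -0.20, Cox6c at -0.20, Rpl32 at -0.19, Rps7 at -0.17, Nolc1 at 0.18, Nid1 at 0.20, Fn1 at 0.21, Lrp2 at 0.30 and Peg10 at 0.35. Of these 28 genes, Dppa3, Rpa3, Mrps33, Rps3 and Vcan kept their call whichever of the 12 libraries was left out, and the other 23 lost it in at least 1 such fit. With limma on log2(TPM + 1) all 28 lost it. Lars2 was at 0.17 without replicate 3 of the WT control at 24 h (edgeR adjusted p = 0.82), and Smim8 at -0.31 without replicate 1 of that group (edgeR adjusted p = 0.245).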

How the results depend on the processing

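Between 24 and 48 h 2690 genes passed in the WT control, 408 in the KO control, 243 for the difference and 242 in both lines. With a fold change of at least 0.58 on the log2 scale the counts were 155, 29, 14 and 9. A fit on the 12 libraries alone gave 2515, 318, 188 and 201. Fits on the 6 libraries of each line gave 2328 in the WT control, 330 in the KO control and 199 in both. Limma on log2(TPM + 1) gave 217 in the KO control, 2 for the difference and 155 in both. For the difference, no filter on low counts gave 420, DESeq2 464 and the offset by length, chosen after seeing the data, 111. Leaving out 1 library gave 1696 to 2476 in the WT control, 172 to 534 in the KO control, 44 to 420 for the difference and 99 to 310 in both. The cause was not tested. Of the genes given in the text that passed, only Asns in the WT control changed sign under any alternative, to -0.07 with limma on log2(TPM + 1). The genes given in the text are part of those that the naming rules chose and do not stand for the rest. Whichever library was left out, 48 of 56 of their calls held in the WT control. So did 29 of 37 in the KO control and 5 of 28 for the difference. Limma on log2(TPM + 1) lost 12 of 56, 16 of 37 and 28 of 28 of them. Whether the replicate numbers pair the libraries is not known. Same-numbered libraries had correlations of their deviations from group means from -0.242 to 0.18. Between 24 and 48 h these were 0.105, 0 and 0.18 in the WT and -0.047, -0.065 and -0.142 in the KO control. With 3 libraries per group such values cannot decide it. With a replicate block, which the main fit does not have, the counts were 2856, 479, 353 and 286. The limit that depth sets on genes of low expression was not tested.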

Other observations

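Some smaller gene groups held members that passed from 24 to 48 h in the control lines. Over all genes tested 8.4% passed higher and 6.91% lower in the WT control, and 1.51% and 0.814% in the KO control. No test was run over a group, so the counts are a description. Of 25 cholesterol synthesis genes 4 rose and 3 fell in the WT control and 4 rose and none fell in the KO control, where 2 rose without replicate 2 at 24 h or in a fit on the 12 libraries, with medians of 0.00 and 0.04. In the WT control 1 fell without replicate 1 at 24 h or replicate 3 at 48 h. Msmo1, an enzyme of that pathway, went from 82.5, 86.1 and 81.9 to 100.0, 102 and 105 CPM in the WT and from 80.1, 87.3 and 82.4 to 92.2, 96.6 and 103 in the KO control, rises of 0.29 ± 0.05 and 0.22 ± 0.04. Of 15 antioxidant genes under NRF2, 4 rose and 1 fell in the WT and 2 rose in the KO control, with medians of 0.01 and 0.03, and 2 rose in the WT control with the offset by length. Srxn1, which encodes sulfiredoxin, rose by 0.23 ± 0.04 from 39.4 to 40.2 CPM at 24 h to 45.5 to 47.3 at 48 h in the WT, and by 0.27 ± 0.04 from 42.7 to 43.6 to 49.9 to 53.3 in the KO control. Of 23 lysosome and autophagy genes 6 rose and 2 fell in the WT and 3 rose in the KO control, or 1 there without replicate 3 at 48 h. Npc2, a lysosomal cholesterol carrier, rose by 0.22 ± 0.03 and 0.14 ± 0.03. Of 18 p53 targets 6 rose in the WT and 3 in the KO control. Those counts were 3 in the WT control without replicate 3 of either time, and 0 or 1 in the KO control without any 1 of its libraries other than replicate 1 at 48 h. With limma on log2(TPM + 1) cholesterol synthesis had 1 higher in the WT and 0 in the KO control, the NRF2 list 0 in the WT control, the lysosome list 2 and 1 and the p53 list 1 and 0. Upper-quartile factors, no filter on low counts and the fits on the 12 libraries or on the 6 of the line each gave 1 p53 target in the KO control.

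Banp, a nuclear matrix binding protein, went from 30.4, 29.3 and 28.0 to 22.4, 22.1 and 22.1 CPM in the WT and from 27.2, 27.4 and 24.5 to 21.3, 20.3 and 18.7 in the KO control. It fell by 0.40 ± 0.05 on the log2 scale in each line, with no overlap between 24 and 48 h (edgeR adjusted p = 4.81e-08 and 2.25e-07). From 48 to 96 h it rose by 0.38 and 0.55.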
